A study of Mus musculus with 6 samples.

Results

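Complement genes were compared between colitis mice receiving berberine (BBR) and colitis mice receiving sulfasalazine (SASP). The members were 31 genes picked by symbol for components, receptors and regulators of the complement system, and 30 of them were among the 18268 genes of the expression table. Mbl2, the gene of a mannose-binding lectin, was the 1 member with no row. Transcripts had been measured by RNA sequencing of whole colorectal tissue from male C57BL/6 mice, aged 8 to 10 weeks per the methods of the study. All 6 mice drank 2.5% dextran sulfate sodium (DSS), which damages the gut epithelium, for 7 days. Over 6 days, 3 of them were gavaged with BBR (100 mg/kg), a plant alkaloid, and 3 with SASP (200 mg/kg), an aminosalicylate prodrug prescribed for colitis. Normal mice and colitis mice given no drug were not analysed here, so a lower value under BBR is equally a higher value under SASP.

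Complement is a cascade of plasma and tissue proteases that marks surfaces for uptake, releases peptides that attract leukocytes, and can pierce membranes. The classical pathway starts when C1q binds antibody or another ligand, the lectin pathway when lectins bind sugars, and the alternative pathway from C3 itself, and all of them converge on the cleavage of C3. Most circulating components come from the liver, but epithelial cells, macrophages and fibroblasts of the gut also produce some of them, and host cells carry regulators that stop the cascade on their own surface.

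Values are FPKM, read numbers divided by transcript length and sequencing depth, so levels of different genes can be compared. The tissue carried the epithelial markers Epcam at 833 to 1101 FPKM and Krt8 at 1852 to 2147 FPKM. The depth, estimated from the smallest values in the table, was 16400000 to 18200000 reads per mouse. BBR mouse 3 stood apart from the other BBR mice, with a summed level of 10 smooth muscle genes of 7439 FPKM against 3200 and 3418. In tissue of mixed cells, fewer cells of a type and less RNA per cell cannot be told apart. Nothing in the labels says whether the mice shared cages or days, so the tests measure the spread between these 6 samples.

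Of the 30 listed members, 20 reached at least 1 FPKM in at least 3 mice and were tested. C3, C4b and Cfb, the genes of 3 proteins that build the C3 convertases or are cleaved by them, were lower under BBR and passed the threshold, an adjusted p under 0.05 in limma over 12072 genes. They made up 3 of the 20 tested members, beside 8.86% of all tested genes called in either direction and 5.04% called lower. No member was called higher (0 of 20), and Cd59a was the 1 higher member with an unadjusted p of at most 0.05. At that p, which was the threshold of the study, 10 of 20 members passed, 9 of them lower, beside 31.8% of all tested genes. BBR and SASP values did not overlap in 9 of 20 members, 7 of them lower under BBR, beside 37.9% of all tested genes. That share of members is close to the background. The median log2 fold change (BBR minus SASP, on log2(FPKM + 1)) was -0.27 over the 20 members, of which 13 were lower and 7 higher, and 0.10 over all tested genes. Cd46 passed the filter through BBR values alone, so these counts and the median describe the tested members and support nothing further.

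**Figure D1:**
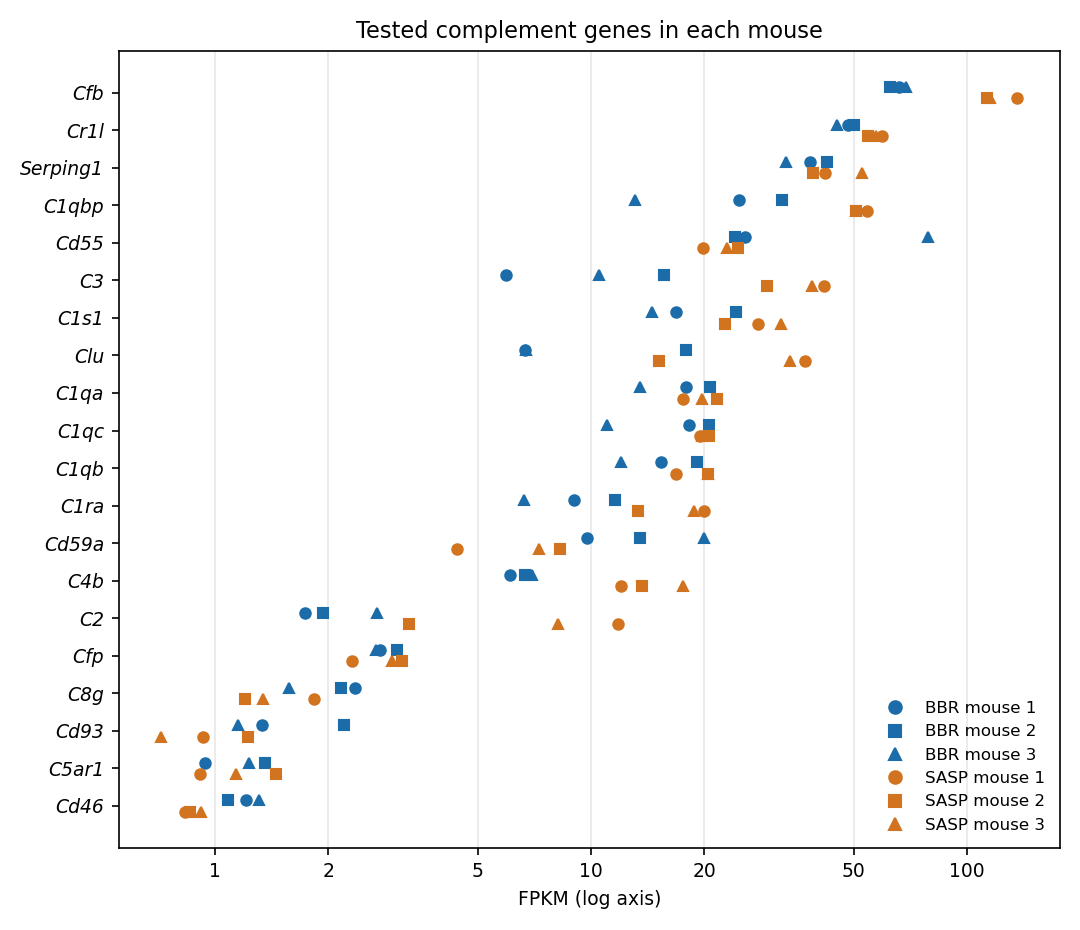
FPKM (log axis) of each of the 20 tested complement genes in each mouse, ordered by mean level, with 3 BBR mice (blue) and 3 SASP mice (orange). Cfb was the most abundant in every mouse except BBR mouse 3, where Cd55 reached 78.9 FPKM, and the SASP points of C3, C4b and Cfb all lay to the right of the BBR points.

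C3 is the central component, whose cleavage all pathways share, and it had the largest log2 fold change of the tested members on the log2(FPKM + 1) scale, while the ratio of means was larger for C2 (3.65 against 3.41). It was at 5.95, 15.6 and 10.5 FPKM in BBR mice 1, 2 and 3, and at 41.6, 29.4 and 38.7 FPKM in SASP mice 1, 2 and 3. The groups were well apart, and BBR mouse 2 was the highest and SASP mouse 2 the lowest of its group. The mean was 3.41-fold higher under SASP, at 36.6 ± 6.35 FPKM against 10.7 ± 4.85 FPKM (mean ± SD, n = 3 per drug), and the log2 fold change was -1.76 (SE 0.31, adjusted p = 0.0245 in limma). Leaving out BBR mouse 1 (-1.42) or SASP mouse 1, 2 or 3 (-1.66, -1.90 and -1.71) ended the call. Over all 14 alternatives the adjusted p ran from 0.000154 to 0.217 and the log2 fold change from -2.34 to -1.42.

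Because C3 is the called member for which a promoter sequence was given, the 250 bases before its start are shown, from RefSeq (GRCm38.p6, chr17:57228137-57228386, minus strand, 5′ to 3′). Capitals mark matches on either strand to the letters GGGANNNNCC, a short form of the NF-kB motif.

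C3: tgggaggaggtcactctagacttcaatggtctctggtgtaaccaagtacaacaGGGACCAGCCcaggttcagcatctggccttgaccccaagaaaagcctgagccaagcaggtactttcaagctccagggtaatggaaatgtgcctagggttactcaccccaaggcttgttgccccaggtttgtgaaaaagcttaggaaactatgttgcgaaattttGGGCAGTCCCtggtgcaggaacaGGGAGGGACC

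The window held 3 such matches that did not overlap, beginning 197, 33 and 10 bases before the start. Matches to these letters occurred in 8 of the 22 member genes with a window and in 17.6% of 32851 RefSeq windows of the same length. The letters TTCNNNGAA, a gamma-activated site, and GAAANNGAAA, the core of an interferon-stimulated response element, were not in the C3 window. The first occurred in 1 of the 22 genes (C7) and in 7.02% of all windows, and the second in 1 (Cd59a) and in 2.98%. These are letter matches and no evidence of binding. C4b and Cfb are not shown.

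C4b encodes C4, which is cleaved by C1s and by the lectin pathway proteases and becomes part of the classical C3 convertase. BBR mice 1, 2 and 3 had 6.10, 6.66 and 6.98 FPKM, and SASP mice 1, 2 and 3 had 12.02, 13.64 and 17.55 FPKM. Every SASP value exceeded every BBR value, and the spread within BBR mice was small. The mean was 2.19-fold higher under SASP (14.4 ± 2.84 against 6.58 ± 0.445 FPKM, SD, n = 3 per drug), and the log2 fold change was -1.01 (SE 0.15, adjusted p = 0.0180 in limma). C4a, a close paralog of C4b, was listed at 0.03 to 0.23 FPKM, and the division of reads between such similar genes is uncertain.

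Cfb encodes factor B, the protease of the alternative pathway convertase. It was the most abundant member in 5 of the 6 mice, at 66.0, 62.4 and 68.8 FPKM in BBR mice 1, 2 and 3 and at 136, 113 and 115 FPKM in SASP mice 1, 2 and 3. The values did not overlap and the mice within a group were close. The mean was 1.85-fold higher under SASP (122 ± 12.6 against 65.8 ± 3.20 FPKM, SD, n = 3 per drug), and the log2 fold change was -0.87 (SE 0.11, adjusted p = 0.00999 in limma). C4b and Cfb lost their calls without BBR mouse 1 (-0.96 and -0.88), SASP mouse 1 (-1.12 and -0.79) or SASP mouse 3 (-0.87 and -0.91), over adjusted p ranges of 0.000130 to 0.167 and 8.34e-05 to 0.156 for all 14 alternatives. With the smooth muscle level as a covariate 0 of the 20 members passed (4 at an unadjusted p under 0.05, with the share of all genes not given), while the log2 fold changes of C3, C4b and Cfb were -1.68, -1.23 and -0.76. The smooth muscle sums were 3200 to 7439 FPKM in BBR and 869 to 2635 FPKM in SASP mice. They did not overlap, so this covariate and the drug cannot be told apart.

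**Figure D2:**
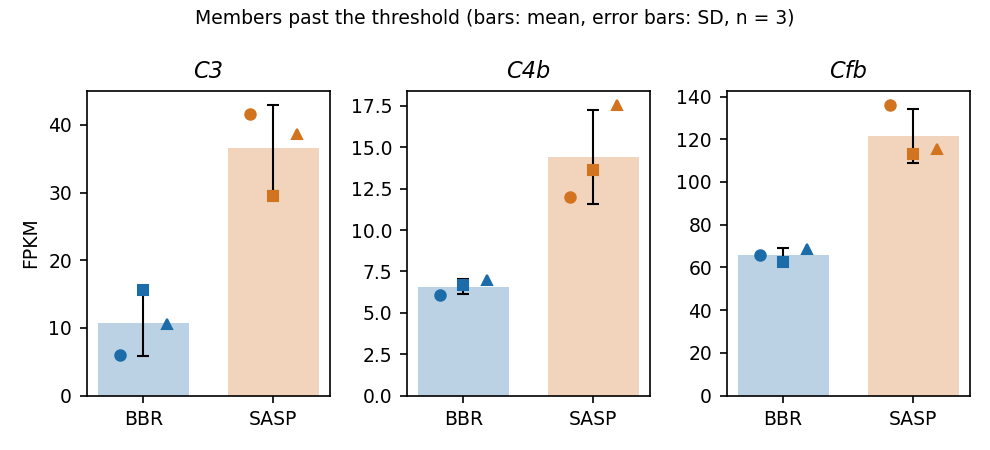
FPKM of C3, C4b and Cfb in single mice (points), with the group mean (bar) and SD (error bar, n = 3). In each panel the lowest SASP mouse lay above the highest BBR mouse.

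C2 encodes the protease that joins C4b in the classical convertase and is the direct neighbour of Cfb on chromosome 17 in the RefSeq annotation. Its levels were 1.74, 1.94 and 2.69 FPKM in BBR mice 1, 2 and 3 and 11.8, 3.28 and 8.16 FPKM in SASP mice 1, 2 and 3. The groups did not overlap, but SASP mouse 2 lay near the BBR mice. C2 missed the threshold (log2 fold change -1.36, SE 0.38, 95% interval -2.27 to -0.45, limma adjusted p = 0.0681). It passed without SASP mouse 2 (-1.81) or BBR mouse 3 (-1.49) and with array weights (-1.64). Those fits called 3.40%, 33.8% and 59.0% of all tested genes, against 8.86% with all mice.

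The first component, C1, starts the classical pathway, and its recognition part C1q is assembled from 3 chains encoded by C1qa, C1qb and C1qc. These are neighbouring genes on chromosome 4, and macrophages are a main source of C1q. C1qa was at 17.9, 20.7 and 13.5 FPKM in BBR mice 1, 2 and 3 and at 17.6, 21.6 and 19.7 FPKM in SASP mice 1, 2 and 3. C1qb ranged from 12.03 to 19.17 FPKM in BBR and from 16.8 to 20.5 FPKM in SASP mice, and C1qc from 11.1 to 20.6 and from 19.6 to 20.7 FPKM. The 3 chains lay at nearly the same level in a given mouse, BBR mouse 3 had the lowest value of each, and the groups overlapped. Log2 fold changes were -0.18, -0.31 and -0.29, with 95% intervals of -0.58 to 0.22, -0.73 to 0.11 and -0.80 to 0.21 and limma adjusted p-values of 0.480, 0.261 and 0.368. Without BBR mouse 3 the values were -0.02, -0.15 and -0.04.

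C1ra and C1s1 encode the proteases of C1 and lie side by side on chromosome 6. C1ra was at 9, 11.6 and 6.63 FPKM in BBR mice 1, 2 and 3 and at 20.02, 13.32 and 18.76 FPKM in SASP mice 1, 2 and 3. The groups did not overlap, with BBR mouse 2 and SASP mouse 2 nearest each other (log2 fold change -0.88, SE 0.23, 95% interval -1.41 to -0.34, limma adjusted p = 0.0580). C1s1 reached 14.6 to 24.3 FPKM in BBR and 22.8 to 31.95 FPKM in SASP mice, where BBR mouse 2 exceeded SASP mouse 2 (-0.56, adjusted p = 0.120), and it passed with median-ratio scaling (-0.69) and with array weights (-0.76). C1ra passed the threshold without BBR mouse 3 (-0.69), with quantile normalization (-0.93), with array weights (-0.91) and with median-ratio scaling. In that order, these fits called 33.8%, 14.4%, 59.0% and 14.0% of all tested genes, against 8.86% with all mice. C1s2, a paralog of C1s1, was listed at 0 to 0.05 FPKM.

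**Figure D3:**
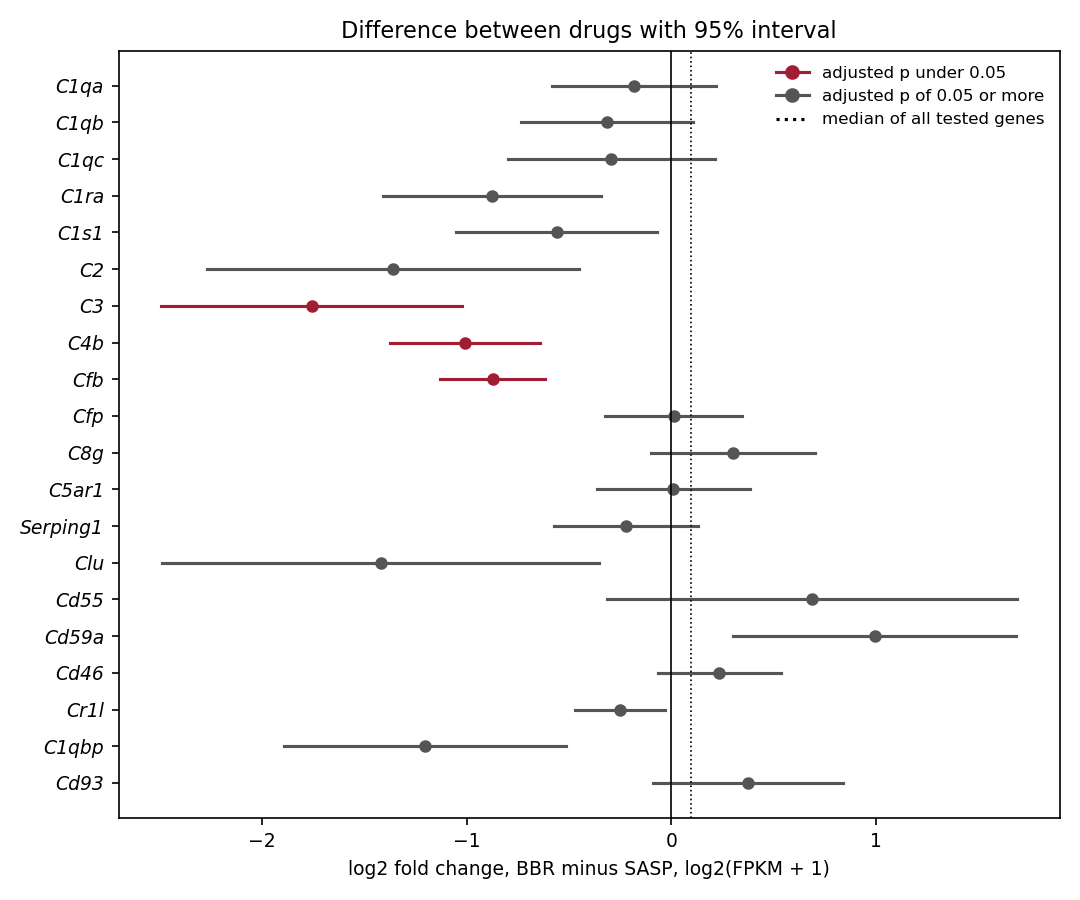
Log2 fold change (BBR minus SASP, on log2(FPKM + 1)) of the 20 tested complement genes with 95% intervals from limma, in order of role from C1q to receptors. C3, C4b and Cfb (red) passed an adjusted p under 0.05, and the dotted line marks the median of all tested genes, 0.10.

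Cfp, the gene of properdin, which stabilises the alternative convertase, was at 2.74, 3.05 and 2.68 FPKM in BBR mice 1, 2 and 3, against 2.32, 3.15 and 2.96 FPKM in SASP mice 1, 2 and 3. The values were interleaved, and the log2 fold change was 0.01 (95% interval -0.32 to 0.34). Cfd, the gene of factor D or adipsin, which cleaves factor B and is a known product of fat cells, lay below the filter. It was listed at 0.22, 51.0 and 0.07 FPKM in BBR mice 1, 2 and 3 and at 0, 0 and 12.7 FPKM in SASP mice 1, 2 and 3, so that 1 mouse of each group held nearly all of it. The fat cell marker Adipoq was at 6.85 FPKM in BBR mouse 2 and 1.84 FPKM in SASP mouse 3 and at 0 to 0.09 FPKM in the other mice, and Retn was at 5.54 and 1.42 FPKM in the same libraries and at 0 in the others. Summed over 6 fat cell markers the level was 10.4 to 64.4 FPKM in BBR and 5.13 to 28.0 FPKM in SASP mice.

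Without BBR mouse 2 and SASP mouse 3, the libraries with the most Adipoq and a choice made after seeing the data, the log2 fold changes of C3, C4b and Cfb were -2.01, -0.87 and -0.87. With 2 mice a group 0 members passed the threshold in limma, and 8 of 20 had an unadjusted p under 0.05. The share of all genes at that p in this fit is not given. BBR mouse 2 had also the highest C3 value of its group, but SASP mouse 3 (38.7 FPKM) lay below SASP mouse 1 (41.6 FPKM). The part of fat tissue in the complement values was not tested.

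Masp1, the 1 member of the lectin pathway in the table, encodes a lectin-associated protease and lay below the filter. It was at 0.26, 0.78 and 0.51 FPKM in BBR mice 1, 2 and 3, against 0.23, 0.34 and 0.23 FPKM in SASP mice 1, 2 and 3, or about 21 to 69 reads. BBR mouse 1 lay within the SASP range. Among further lectin genes, Fcna (ficolin A) was at 2.18 to 3.60 FPKM and Colec12, a scavenger collectin, at 2.75 to 7.37 FPKM over all mice, with overlapping groups. Colec10, another collectin gene, lay below the filter and did not overlap, at 0.43 to 0.59 FPKM in BBR and 0.11 to 0.22 FPKM in SASP mice.

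The terminal components form the membrane attack complex with C5, and their transcripts were also scarce. Hc, the gene of C5, was listed at 0 to 0.03 FPKM, at most about 3 reads, so no difference was detectable at this depth. C6 was at 0.48, 0.27 and 0.29 FPKM in BBR mice 1, 2 and 3, against 0.02, 0.04 and 0.13 FPKM in SASP mice 1, 2 and 3. All BBR values were above all SASP values, but they rest on about 1 to 23 reads and were not tested. C7 was at 0.59, 3.57 and 0.33 FPKM in BBR mice 1, 2 and 3 and at 0.09, 0.28 and 0.82 FPKM in SASP mice 1, 2 and 3. Its highest values were in BBR mouse 2 and SASP mouse 3, the libraries with fat cell markers, and the part of fat in the C7 values was not tested. All 4 mesothelial markers stayed under 1 FPKM. Of these, Upk3b was highest in the same libraries within each group (0.93 and 0.28 FPKM), while Msln was highest in BBR mouse 2 (0.82 FPKM) but in SASP mouse 1 (0.76 FPKM, against 0.35 and 0.46 FPKM in SASP mice 2 and 3). C8g, the gene of a C8 chain, was at 2.35, 2.16 and 1.57 FPKM in BBR mice 1, 2 and 3, against 1.83, 1.2 and 1.34 FPKM in SASP mice 1, 2 and 3, and the groups overlapped (log2 fold change 0.30, 95% interval -0.10 to 0.70).

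**Figure D4:**
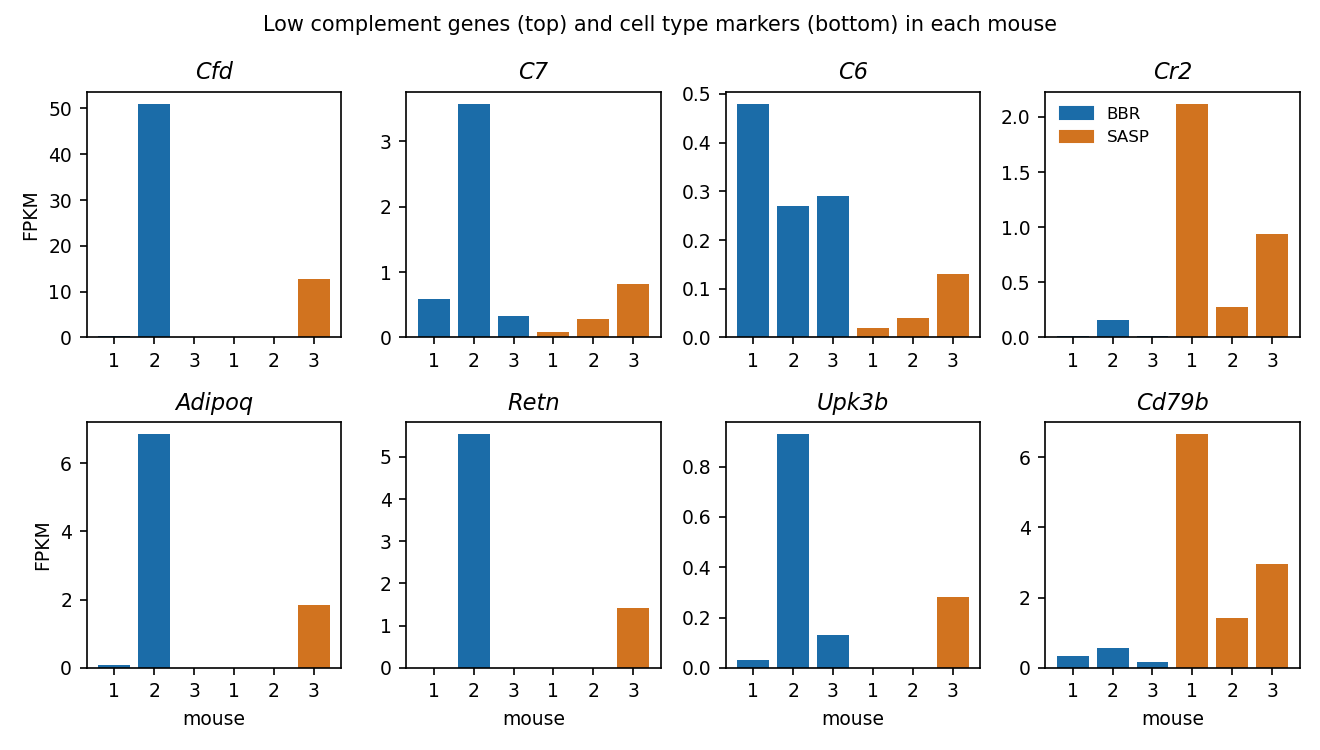
FPKM of 4 complement genes under the filter (top) and of fat cell (Adipoq, Retn), mesothelial (Upk3b) and B cell (Cd79b) markers (bottom) in BBR mice 1 to 3 and SASP mice 1 to 3, each panel on its own axis. Cfd was high in BBR mouse 2 and SASP mouse 3 like Adipoq, and Cr2 was highest in SASP mouse 1 like Cd79b.

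Anaphylatoxin receptors, which sense the C3a and C5a peptides on myeloid and other cells, were low and their groups overlapped. C5ar1 was at 0.94, 1.36 and 1.23 FPKM in BBR mice 1, 2 and 3, against 0.91, 1.45 and 1.14 FPKM in SASP mice 1, 2 and 3, with a log2 fold change of 0.01 (95% interval -0.36 to 0.38). C3ar1 ranged from 0.54 to 0.69 FPKM in BBR and from 0.44 to 0.70 FPKM in SASP mice, and C5ar2 from 0.29 to 0.43 and from 0.23 to 0.37 FPKM, and neither was tested.

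Soluble regulators gave mixed values. Serping1, the gene of C1 inhibitor, which inactivates C1r and C1s, was abundant at 38.25, 42.5 and 32.99 FPKM in BBR mice 1, 2 and 3, against 42.0, 39.1 and 52.6 FPKM in SASP mice 1, 2 and 3. The groups overlapped (log2 fold change -0.22, 95% interval -0.57 to 0.13, limma adjusted p = 0.328). Clu encodes clusterin, a chaperone that also blocks the terminal complex. It was at 6.68, 17.96 and 6.70 FPKM in BBR mice 1, 2 and 3 and at 37.05, 15.19 and 33.9 FPKM in SASP mice 1, 2 and 3. BBR mouse 2 exceeded SASP mouse 2, and the difference missed the threshold (log2 fold change -1.42, SE 0.45, 95% interval -2.49 to -0.35, limma adjusted p = 0.0867). It passed only with array weights (-1.94), which called 59.0% of all tested genes. Cfi, the gene of factor I, which degrades C3b and C4b, was listed at 0.02 to 0.05 FPKM, about 1 to 2 reads. Vtn, the gene of vitronectin, was at 0.28, 0.78 and 0.12 FPKM in BBR mice 1, 2 and 3, against 0.09, 0.09 and 0.27 FPKM in SASP mice 1, 2 and 3, highest in BBR mouse 2 among all mice and in SASP mouse 3 within its group.

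Of the 4 tested membrane regulators 3 were on the higher side under BBR and Cr1l on the lower, and 0 passed the threshold in limma. At an unadjusted p of at most 0.05 there were 2 (Cd59a higher and Cr1l lower), beside 31.8% of all tested genes. Cd59a encodes an anchored protein that stops the membrane attack complex. It was at 9.78, 13.5 and 19.96 FPKM in BBR mice 1, 2 and 3 and at 4.41, 8.30 and 7.28 FPKM in SASP mice 1, 2 and 3. All BBR values were above all SASP values (log2 fold change 0.99, SE 0.29, 95% interval 0.30 to 1.68, limma adjusted p = 0.0746). In each group the order of mice for Cd59a matched the order of their summed smooth muscle markers, which were 3200, 3418 and 7439 FPKM in BBR mice 1, 2 and 3, against 869, 2635 and 1955 FPKM in SASP mice 1, 2 and 3. With the smooth muscle level as a covariate the log2 fold change of Cd59a was 0.20. Every BBR sum was above every SASP sum, so this covariate and the drug cannot be told apart. The part of smooth muscle in the Cd59a values was not tested. With array weights, which called 59.0% of all tested genes, Cd59a passed the threshold at 0.49.

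The 250 bases before Cd59a are shown because it was the one member with a window that held GAAANNGAAA, marked in capitals (RefSeq, GRCm38.p6, chr2:104095551-104095800, plus strand, 5′ to 3′). The match begins 187 bases before the start.

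Cd59a: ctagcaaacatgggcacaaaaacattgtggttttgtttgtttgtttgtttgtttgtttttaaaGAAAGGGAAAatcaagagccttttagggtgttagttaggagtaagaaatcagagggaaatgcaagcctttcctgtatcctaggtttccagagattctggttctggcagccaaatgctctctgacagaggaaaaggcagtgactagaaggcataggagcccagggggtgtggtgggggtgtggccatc

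Cd55 encodes decay-accelerating factor, which takes C3 convertases apart. Its values were 25.65, 24.19 and 78.88 FPKM in BBR mice 1, 2 and 3 and 19.9, 24.6 and 23.0 FPKM in SASP mice 1, 2 and 3. BBR mouse 3 was far above all other mice, which lay together. The log2 fold change of 0.69 (95% interval -0.31 to 1.69, limma adjusted p = 0.296) was 0.14 without that mouse. Cr1l encodes Crry, the main cell surface regulator of C3 in rodents. It was at 48.3, 50.1 and 45.1 FPKM in BBR mice 1, 2 and 3, against 59.5, 54.7 and 57.4 FPKM in SASP mice 1, 2 and 3, a small but non-overlapping difference (log2 fold change -0.25, SE 0.09, limma adjusted p = 0.118). Cr1l passed with median-ratio scaling (-0.38) and with array weights (-0.24), which called 14.0% and 59.0% of all tested genes. Cd46, which lies beside Cr1l on chromosome 1 and encodes a cofactor for C3b cleavage, was at 1.21, 1.08 and 1.31 FPKM in BBR mice 1, 2 and 3, against 0.83, 0.86 and 0.92 FPKM in SASP mice 1, 2 and 3 (log2 fold change 0.23, limma adjusted p = 0.245). Cd59b and Cd55b, paralogs of Cd59a and Cd55, were listed at 0.11 to 0.47 and 0.25 to 0.59 FPKM.

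Cr2 encodes the receptor for C3d on B cells and follicular dendritic cells. It was at 0.01, 0.16 and 0.01 FPKM in BBR mice 1, 2 and 3 and at 2.12, 0.28 and 0.94 FPKM in SASP mice 1, 2 and 3, and fell below the filter. The groups did not overlap, and SASP mice differed widely among themselves. The B cell marker Cd79b was at 0.33, 0.56 and 0.18 FPKM in BBR mice 1, 2 and 3, against 6.66, 1.42 and 2.95 FPKM in SASP mice 1, 2 and 3, in the same order as Cr2 within SASP mice, and was called lower (log2 fold change -1.63, limma adjusted p = 0.0489). The 7 B cell markers read summed to 1.38 to 2.70 FPKM in BBR and 5.02 to 31.4 FPKM in SASP mice, with 2 of them tested. The part of B cells in the Cr2 values was not tested.

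C1qbp and Cd93 encode proteins once described as receptors of C1q. C1qbp, whose product resides mainly in mitochondria, was at 24.8, 32.3 and 13.1 FPKM in BBR mice 1, 2 and 3 and at 54.3, 50.9 and 50.6 FPKM in SASP mice 1, 2 and 3. The groups were well apart, with BBR mouse 3 lowest, and the gene stood just outside the threshold (log2 fold change -1.20, SE 0.29, 95% interval -1.89 to -0.51, limma adjusted p = 0.0501). It passed without BBR mouse 2 (-1.47) or BBR mouse 3 (-0.85), with quantile normalization (-1.20), with median-ratio scaling (-1.33) and with array weights (-0.99). In that order, these fits called 3.13%, 33.8%, 14.4%, 14.0% and 59.0% of all tested genes. Cd93, a surface protein of endothelial and myeloid cells, was at 1.33, 2.2 and 1.15 FPKM in BBR mice 1, 2 and 3, against 0.93, 1.22 and 0.72 FPKM in SASP mice 1, 2 and 3, with overlap of the groups (log2 fold change 0.37, limma adjusted p = 0.231).

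**Figure D5:**
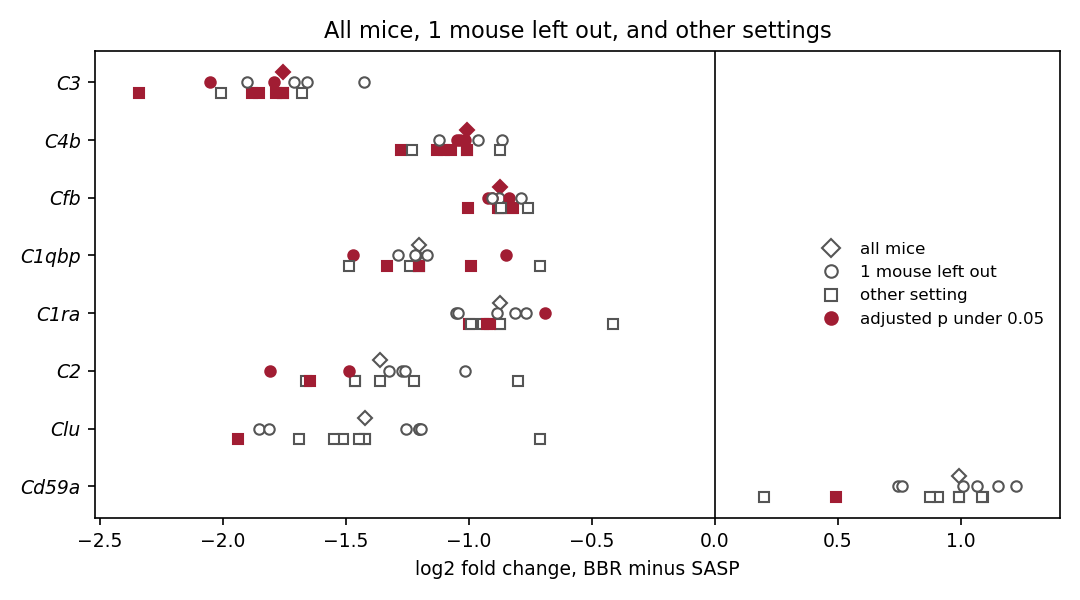
Log2 fold change (BBR minus SASP) of 8 complement genes with all mice (diamonds), with 1 mouse left out (circles) and under other settings (squares), filled red where the adjusted p was under 0.05. Points of one gene stayed on the same side of 0 in all settings, while many of them were not called.

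Further genes of the system were read from a list of 35, of which 31 were in the table and 9 were tested. None of these 9 passed the threshold in limma (0 of 9, with 2 at an unadjusted p under 0.05), 6 were on the lower side and 3 on the higher, and the median log2 fold change was -0.20. In the table, 21 of the 31 stayed under 1 FPKM in all mice. With array weights 6 of the 9 were called, beside 59.0% of all tested genes.

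Markers of possible source cells were read from the same libraries, and their part in the complement values was not tested. Their calls stand beside 8.86% of all tested genes called in either direction and 5.04% called lower. Of 12 macrophage genes, 11 were tested, 6 were on the lower side and 5 on the higher, with a median log2 fold change of -0.06. Of these, 3 were called lower (Fcgr1, Cd14 and Aif1) and 0 higher in limma, and Mrc1 was on the higher side without overlap (0.42, limma adjusted p = 0.102). The summed macrophage level was 500 to 574 FPKM in BBR and 581 to 700 FPKM in SASP mice, of which Ctss alone made up 349 to 453 FPKM. Of 8 granulocyte genes, 5 were tested, 4 were on the lower side and 1 on the higher, and S100a8 was called lower. Their sums were 192 to 567 FPKM in BBR and 357 to 536 FPKM in SASP mice, of which Ly6g alone made up 190 to 552 FPKM over all mice. S100a8 was at 0, 0 and 6.19 FPKM in BBR mice 1, 2 and 3, against 18.5, 20.6 and 23.1 FPKM in SASP mice 1, 2 and 3. S100a9 was at 0.11, 0.11 and 5.25 FPKM, against 6.91, 7.19 and 10.7 FPKM, and missed the threshold (limma adjusted p = 0.0746). The other tested granulocyte genes overlapped between the groups. All 9 fibroblast genes were tested and higher, 4 of them called (Col1a1, Col3a1, Lum and Thy1), with sums of 315 to 420 FPKM in BBR and 140 to 247 FPKM in SASP mice. Of 8 endothelial genes 7 were tested and higher, with Emcn called and sums of 21.0 to 37.4 and 11.1 to 14.8 FPKM. All 10 smooth muscle genes were higher and 0 were called in limma, with sums of 3200 to 7439 and 869 to 2635 FPKM. Of 8 epithelial genes, Krt18 and Cdx2 were called higher and Vil1 lower, with sums of 5264 to 5764 and 5467 to 6505 FPKM. Of the 5 hepatocyte genes in the table, 4 stayed under 1 FPKM in all mice, with Alb at 0.03 to 0.35 FPKM and Apoa1 at 0 to 0.10 FPKM, and Ttr at 5.79 to 25.4 FPKM.

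Interferon can raise several complement genes in many cell types, so its transcription factors were read beside them. Of 5 such genes read, 4 were called lower under BBR (Stat2, Irf1, Irf8 and Irf9) and 0 higher, beside 5.04% of all tested genes called lower. Their sums were 199 to 262 FPKM in BBR and 558 to 846 FPKM in SASP mice. Irf1 was at 135, 116 and 128 FPKM in BBR mice 1, 2 and 3 and at 422, 329 and 484 FPKM in SASP mice 1, 2 and 3 (log2 fold change -1.68, limma adjusted p = 0.00478). For Irf1, as for C3, C4b and Cfb, every SASP mouse exceeded every BBR mouse. Groups did not overlap, in either direction, in 37.9% of all tested genes, and a link between these genes was not tested.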

How the data were processed

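RNA of colorectal tissue was sequenced in 3 BBR and 3 SASP mice. The authors deposited 1 table of FPKM values per gene and mouse, rounded to 2 decimals. Per the labels and methods, reads were aligned with Bowtie2 (2.2.5) and quantified with RSEM (1.2.12), and the labels name the mm9 build. The methods describe ribosomal RNA depletion and single-end reads on a DNA nanoball platform, while the labels name an Illumina kit. The annotation is not given in the sources used here, so gene coordinates are not printed for the table. RSEM shares ambiguous reads among paralogs.

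FPKM are not counts, so limma 3.58.1 (R 4.3.3, mean-variance trend) was fitted to log2(FPKM + 1) of the 12072 genes with at least 1 FPKM in at least 3 mice. This scale understates changes of low genes. P-values were two-sided and Benjamini-Hochberg adjusted over all of these genes, with a threshold of 0.05. With 3 against 3 mice an exact permutation test of a single gene cannot pass it. The fit was tested on simulated data. Groups came from the treatment labels, and replicate numbers only name mice.

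Members and lists were chosen with earlier results of these data known. All members are named, and other genes by list: other complement genes past the threshold, and for cell type markers and interferon transcription factors, counts and called genes. Further markers (Epcam, Krt8, Adipoq, Retn, Fabp4, Upk3b, Msln, Mrc1, Ctss, Ly6g, S100a9, Alb, Apoa1, Ttr), lectin genes (Fcna, Colec12, Colec10) and paralogs were named after their values were seen. Reads were estimated by taking the median value of genes above 0 in 1 mouse only, with a transcript under 1500 bases, as 1 read, with lengths of the longest GENCODE M21 transcript. They rest on 31 to 56 genes per mouse and are approximate. Some genes of these lists are not reported here and are left out of the list counts and sums. Motifs were searched on both strands of RefSeq windows (GRCm38.p6).

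The alternatives were a pseudocount of 0.1, no filter, a mean of at least 5 FPKM, quantile normalization, median-ratio scaling, array weights, the mean smooth muscle level as a covariate, and leaving out each mouse. One more, without BBR mouse 2 and SASP mouse 3, was chosen after seeing the data, with the filter at 2 of 4 mice.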

Additional observations from a re-analysis of the deposited data

How the results depend on the processing

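The number of members past the threshold was 3, all lower, with all mice. It stayed 3 with a pseudocount of 0.1, with no filter and on requiring a mean of 5 FPKM, each time C3, C4b and Cfb. In that order, these fits called 8.06%, 3.33% and 9.54% of all tested genes. It was 5 after quantile normalization and 7 after median-ratio scaling, all lower, and 14 with array weights (11 lower and 3 higher), where 14.4%, 14.0% and 59.0% of all tested genes were called against 8.86% before. The array weight calls of C1qb, Serping1, Clu, C8g, Cd59a and Cd93 were gained there alone. It was 0 with the smooth muscle covariate and without BBR mouse 2 and SASP mouse 3 (4 and 8 members at an unadjusted p under 0.05). Both fits have fewer degrees of freedom, and each called 19 of all genes. The smooth muscle sums did not overlap between the drugs, so that covariate and the drug cannot be told apart. Leaving out single mice gave 0 to 6 members, all lower. The count was 0 without BBR mouse 1, SASP mouse 1 or SASP mouse 3, where 7 members had an unadjusted p under 0.05 each time and 131, 59 and 51 of all genes passed the adjusted threshold. In the fits with 0 members past the threshold, the share of all genes at that unadjusted p is not given. Those member counts therefore have no background beside them. It was 6 without BBR mouse 3, where 4018 genes were called.

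The median of the tested members stayed below 0 in all alternatives, from -0.46 to -0.15 across left-out mice. Median-ratio scaling moved the median of all genes from 0.10 to -0.02, so member fold changes were lower by a similar amount. The signs of C3, C4b and Cfb held in every alternative. Of the other complement genes read, 0 were called with all mice (2 at an unadjusted p under 0.05), 1 each with no filter, quantile normalization or median-ratio scaling, 6 with array weights, 0 with a pseudocount of 0.1, a mean of 5 FPKM, the smooth muscle covariate or without BBR mouse 2 and SASP mouse 3, and 0 to 2 across left-out mice. Cfp and C5ar1, both near 0, turned negative with quantile normalization (-0.13 and -0.11), median-ratio scaling (-0.088 and -0.060), array weights (-0.052 and -0.11), the smooth muscle covariate (-0.14 and -0.22) and without BBR mouse 2 and SASP mouse 3 (-0.00078 and -0.057), and ranged from -0.086 to 0.075 and from -0.078 to 0.10 across left-out mice. Cd55 was at -0.18 with the smooth muscle covariate. Cd46 was not tested with a mean of at least 5 FPKM, with median-ratio scaling or without any 1 of the BBR mice. Apart from the constructions named, the cause of these shifts was not tested. The number of reads behind a low value depends on transcript length. Members with all values under about 0.1 FPKM, Hc and Cfi, rest on at most about 3 reads, so differences there were not detectable.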

Other observations

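Further genes of the wider complement list are given here, named after their values were seen. Thbd, the gene of thrombomodulin, which helps to inactivate the anaphylatoxins, was at 4.59, 6.91 and 4.33 FPKM in BBR mice 1, 2 and 3 and at 2.17, 3.11 and 2.55 FPKM in SASP mice 1, 2 and 3. The groups did not overlap, and the difference missed the threshold (log2 fold change 0.78, limma adjusted p = 0.0527). Colec10, the gene of a liver collectin that can start the lectin pathway, lay below the filter, at 0.48, 0.43 and 0.59 FPKM in BBR mice 1, 2 and 3, against 0.11, 0.22 and 0.20 FPKM in SASP mice 1, 2 and 3. With no filter it passed the threshold. Calr, the gene of calreticulin, a chaperone that can bind C1q, was at 358, 385 and 559 FPKM in BBR mice 1, 2 and 3, against 728, 675 and 649 FPKM in SASP mice 1, 2 and 3 (log2 fold change -0.68, limma adjusted p = 0.0656). C4bp, the gene of a fluid-phase inhibitor of C4, was at 6.36 to 6.95 FPKM in BBR and 6.30 to 9.66 FPKM in SASP mice, with overlap of the groups (log2 fold change -0.15, 95% interval -0.55 to 0.24).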
